A study of Mus musculus with 12 samples.

Results

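Mouse embryonic fibroblasts are connective-tissue cells cultured from embryos. Wild-type fibroblasts that had been stimulated with interleukin-1 beta (IL-1b) at 1 ng/ml for 4 h were compared with wild-type fibroblasts stimulated at the same dose for 1 h, to see which transcripts decayed, held or built up between the times. Each time was measured on 2 arrays, and the 4 arrays are part of a series of 12 that also holds wild-type cells left 4 h without the cytokine and the same 3 conditions in fibroblasts of mice with a kinase-dead form of IRAK4, again 2 arrays each. The title of the first unstimulated array names no genotype, and it was placed with the wild type by the design of the series. The cells of all 6 groups grew in the same serum-containing medium, and neither the mouse strain, the passage nor the number of embryos behind a culture is given in the sources used here. The design text speaks of biological replicates and does not say whether they were separate cultures or animals, so p-values measure the spread between these samples, which may be technical in part. The unstimulated cells were grown for 4 h, and none of the 12 arrays holds cells grown for 1 h without the cytokine.

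Every gene on the array with a transcript measurement that carries a single gene symbol was eligible, 18193 genes in all. Of these, 12456 genes were tested, namely those with 2 or more of the 12 arrays at a signal of 25.5 (the median of all values) or higher. Signals were taken as log2(signal + 8), differences are 4 h minus 1 h on that scale with their standard error (SE, n = 2 arrays a group), and a difference of 1 is a 2-fold change. The added 8 makes the differences of dim transcripts too small. Whether the brightest signals flatten, so that differences among them also come out too small, was not tested. A gene was called with an adjusted p under 0.05 in limma, with Benjamini-Hochberg adjustment over all 12456 genes. A gene that was not called is said to hold where the 95% interval of its difference lay inside -1 to 1, and is undecided otherwise.

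IL-1b binds its receptor, which gathers the adaptor MyD88 and the kinase IRAK4 and thereby starts 2 branches of signalling, one to the transcription factor NF-kB and one to the MAP kinases. The genes switched on first often encode transcription factors and feedback inhibitors, and many of their messenger RNAs are unstable, so that their levels follow transcription closely. Others need chromatin opening or newly made factors, or have stable transcripts, and reach their peak later. Fibroblasts answering IL-1b are known as a source of neutrophil-attracting chemokines, IL-6 and matrix-degrading enzymes.

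The promoters of 9 genes that fell, held or rose are shown first, because the motifs in such windows are counted further on. Each is the 150 bases just before the first-listed RefSeq start, on the gene's own strand, from GRCm38.p6. Fos (chr12:85473740-85473889, plus strand), Nr4a1 (chr15:101266696-101266845, plus strand) and Zfp36 (chr7:28379229-28379378, minus strand) fell between the times. Capitals mark the cyclic AMP response element core, TGACG on either strand, in Fos and Nr4a1, the TATA box, TATAAA, in Fos, and the serum response factor motif called CArG box in Zfp36.

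Fos: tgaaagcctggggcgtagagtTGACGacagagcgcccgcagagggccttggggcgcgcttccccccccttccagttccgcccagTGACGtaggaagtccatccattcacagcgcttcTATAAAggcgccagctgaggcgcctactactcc
Nr4a1: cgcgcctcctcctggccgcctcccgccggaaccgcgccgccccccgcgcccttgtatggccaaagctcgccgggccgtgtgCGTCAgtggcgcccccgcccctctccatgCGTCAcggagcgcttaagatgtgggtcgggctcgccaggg
Zfp36: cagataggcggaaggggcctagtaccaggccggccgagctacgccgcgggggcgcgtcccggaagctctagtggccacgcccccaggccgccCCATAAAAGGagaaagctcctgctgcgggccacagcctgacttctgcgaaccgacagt

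Cxcl1 (chr5:90891095-90891244, plus strand) and Cxcl2 (chr5:90903749-90903898, plus strand) held at a high level, and are shown because the same 11 bases with the NF-kB motif, in capitals, stand in both.

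Cxcl1: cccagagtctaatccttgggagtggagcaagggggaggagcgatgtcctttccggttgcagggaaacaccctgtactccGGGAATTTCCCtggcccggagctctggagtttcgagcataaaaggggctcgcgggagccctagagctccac
Cxcl2: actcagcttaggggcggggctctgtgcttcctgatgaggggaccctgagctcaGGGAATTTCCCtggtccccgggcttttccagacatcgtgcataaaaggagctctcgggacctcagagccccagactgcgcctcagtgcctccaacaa

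Il6 (chr5:30012964-30013113, plus strand), Saa3 (chr7:46715677-46715826, minus strand), Gbp3 (chr3:142559894-142560043, plus strand) and Gbp7 (chr3:142530186-142530335, plus strand) rose. Capitals mark the NF-kB motif in Il6, the C/EBP motif TTGCNNAA in Il6 and Saa3, the interferon-stimulated response element (ISRE) in Saa3, Gbp3 and Gbp7, where 2 overlapping matches give Gbp3 its long run, and the STAT motif (GAS) TTCNNNGAA in Gbp7. Motifs were searched on both strands, except the TATA box, which was searched on the gene's strand. Capitals mark only the motifs named for each gene: the printed windows also hold a C/EBP match in Gbp3, a cyclic AMP response element core in Il6 and a STAT motif match in Zfp36.

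Il6: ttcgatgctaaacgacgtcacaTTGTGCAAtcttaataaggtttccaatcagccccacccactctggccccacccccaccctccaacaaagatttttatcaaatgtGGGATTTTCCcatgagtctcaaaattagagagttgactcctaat
Saa3: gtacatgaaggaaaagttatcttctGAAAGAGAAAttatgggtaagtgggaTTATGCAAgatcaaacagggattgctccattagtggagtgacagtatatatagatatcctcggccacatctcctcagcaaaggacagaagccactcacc
Gbp3: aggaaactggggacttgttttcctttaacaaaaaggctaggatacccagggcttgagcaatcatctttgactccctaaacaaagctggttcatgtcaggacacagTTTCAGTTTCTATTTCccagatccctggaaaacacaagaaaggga
Gbp7: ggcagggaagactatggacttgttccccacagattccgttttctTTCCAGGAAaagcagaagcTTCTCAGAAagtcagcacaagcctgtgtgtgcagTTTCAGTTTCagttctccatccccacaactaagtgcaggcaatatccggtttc

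Between 1 h and 4 h, 1316 genes fell (10.6% of those tested) and 1048 rose (8.41%), while 7287 held (58.5%) and 2805 were undecided (22.5%). In every called gene both arrays of one time lay above both arrays of the other, so in what follows a gene that rose or fell had no overlap between the times. The falls of at least 2-fold numbered 267 and the rises of that size 310, and 5 genes fell and 14 rose by at least 8-fold. The median difference over all tested genes was -0.045, and the counts in each gene list below stand against these shares. Of the rising genes, 17 reached the signal minimum on the 4 h arrays alone and so had to differ, Lcn2, Gbp6, Has1, Ptger2 and Serpinb2 among them, and 2 of the falling genes reached it on the 1 h arrays alone. When each array was centred on its median the split was 719 rises and 1642 falls.

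**Figure D1:**
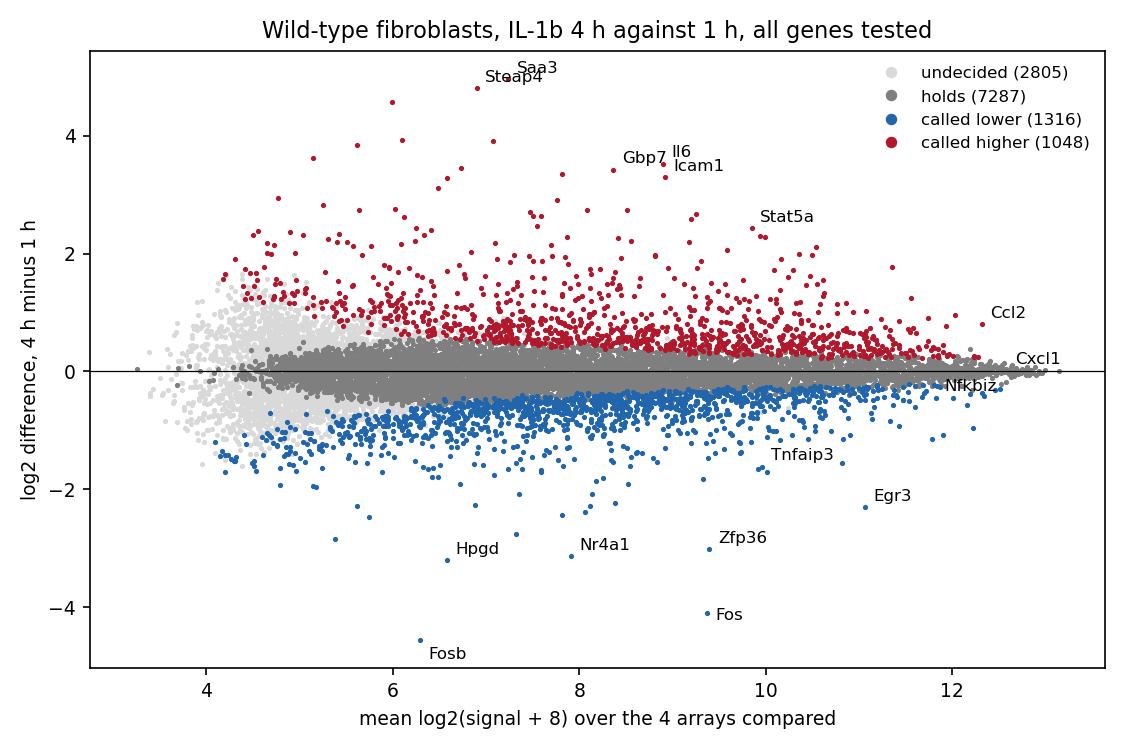
Log2 difference between 4 h and 1 h (vertical axis, log2 units) against the mean log2 signal of the 4 arrays (horizontal axis), 1 point a gene, coloured by call. Fos and Fosb lie lowest and Saa3 and Steap4 highest, while Cxcl1 lies near 0 at a high signal.

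Transcription factors of the immediate-early kind held several of the steepest falls. Of the 10 tested members of the AP-1 family, whose Fos and Jun proteins pair on DNA, 4 fell, none rose and 6 held. Fos read 2680 and 2808 at 1 h and 146 and 158 at 4 h, next to 76.3 and 202 in unstimulated cells (difference -4.11 ± 0.28, adjusted p = 4.2e-08). Fosb read 394 and 352 at 1 h and 16.5 and 2.7 at 4 h, below its unstimulated 24.5 and 23.8 (difference -4.55 ± 0.48, adjusted p = 3.7e-06). Both 4 h arrays of Fosb were thus under the signal minimum, while those of Fos were above it. Jun had 5497 and 5569 at 1 h and 2766 and 2484 at 4 h (difference -1.08 ± 0.09, adjusted p = 3.3e-07), beside 2714 and 2289 unstimulated, while a further probe set of Jun gave a difference of -2.51, and Junb had 143 and 164 and then 56.9 and 46.5 (-1.44 ± 0.26, adjusted p = 0.00076). The paralogues Jund, with a difference of 0.12, 95% interval -0.081 to 0.32, and Fosl2, at 0.0074, 95% interval -0.18 to 0.19, held. Atf3, a stress-induced factor of a related family, fell from 579.7 and 547 to 159 and 152 (-1.80 ± 0.20, adjusted p = 6.6e-06).

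The list of Egr zinc-finger and Nr4a orphan-receptor factors also holds Nab genes, which belong to neither family. Of its 9 members 5 fell, a Nab gene among them, and none rose. Egr3 dropped from 4743 and 4783 to 898 and 1026, with 604 and 650.1 in unstimulated cells (difference -2.30 ± 0.13, adjusted p = 7.4e-09). Egr1 and Egr2 fell by less, with differences of -0.95 ± 0.09 and -1.14 ± 0.16 (adjusted p = 1.1e-06 and 7.6e-05). Nr4a1 read 719 and 694 at 1 h and 70.3 and 76.6 at 4 h, below the unstimulated 85.3 and 105 (-3.13 ± 0.20, adjusted p = 1.8e-08). Its relatives took another course: Nr4a2 and Nr4a3 held, at 1072 and 1182 then 1201 and 1074 and at 455 and 652 then 616 and 572. Their differences were 0.012, 95% interval -0.32 to 0.35, and 0.12, 95% interval -0.35 to 0.59.

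Among other early regulators 9 of 32 fell and 1, Ier5l, rose (0.92 ± 0.23, adjusted p = 0.0099), a call lost without the first 4 h array (adjusted p = 0.11) or the second 1 h array (adjusted p = 0.066). Ier2 went from 403 and 410.5 to 51.5 and 55.7 (difference -2.75 ± 0.28, adjusted p = 3e-06). Csrnp1, a nuclear factor, and Btg2, an antiproliferative partner of the deadenylase machinery, fell with differences of -2.43 ± 0.20 and -1.71 ± 0.13 (adjusted p = 2.7e-07 and 8.6e-08). Btg2 still read 615 and 518 at 4 h against 243 and 235 unstimulated, and the small GTPase Gem read 223 and 216 against 46.3 and 76.5, so both stayed above the unstimulated cells. 

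Feedback on the MAP kinases was divided between members. Of 19 tested phosphatase and receptor-feedback genes, 4 fell and 4 rose. Dusp1, which inactivates p38 and JNK, read 3006 and 3153 at 1 h and 976 and 1120 at 4 h (-1.55 ± 0.14, adjusted p = 5.5e-07), and the nuclear ERK phosphatase Dusp5 read 1665 and 1458 and 707 and 830.5 (-1.02 ± 0.14, adjusted p = 5.1e-05). Spry2, an inhibitor of receptor tyrosine kinase signalling, also fell (-0.82 ± 0.12, adjusted p = 0.00012). Dusp16, which acts on JNK, rose from 170.4 and 166 to 299.9 and 249.8 (0.68 ± 0.15, adjusted p = 0.0038), and this call was lost without the first 4 h array (adjusted p = 0.058).

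Proteins that destroy inflammatory messenger RNAs moved in both directions. Zfp36 (tristetraprolin), which binds AU-rich elements, fell from 1990.4 and 1836 to 226 and 230.3, close to its unstimulated 162 and 208 (difference -3.02 ± 0.16, adjusted p = 2.2e-09). Its paralogue Zfp36l1 held at 4098 and 3748 and 3684 and 3733 (-0.079, 95% interval -0.24 to 0.085). Zc3h12a (Regnase-1), an endonuclease that cuts Il6 mRNA among others, rose from 234 and 297 to 1161 and 1305, against 40.5 and 9.5 unstimulated (2.19 ± 0.38, adjusted p = 0.00058). Zc3h12c, a relative, read 41.8 and 43.8 at 1 h and 101 and 113 at 4 h (1.18 ± 0.22, adjusted p = 0.0012). Over the 14 tested decay proteins, 3 rose, 3 fell and 8 held.

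**Figure D2:**
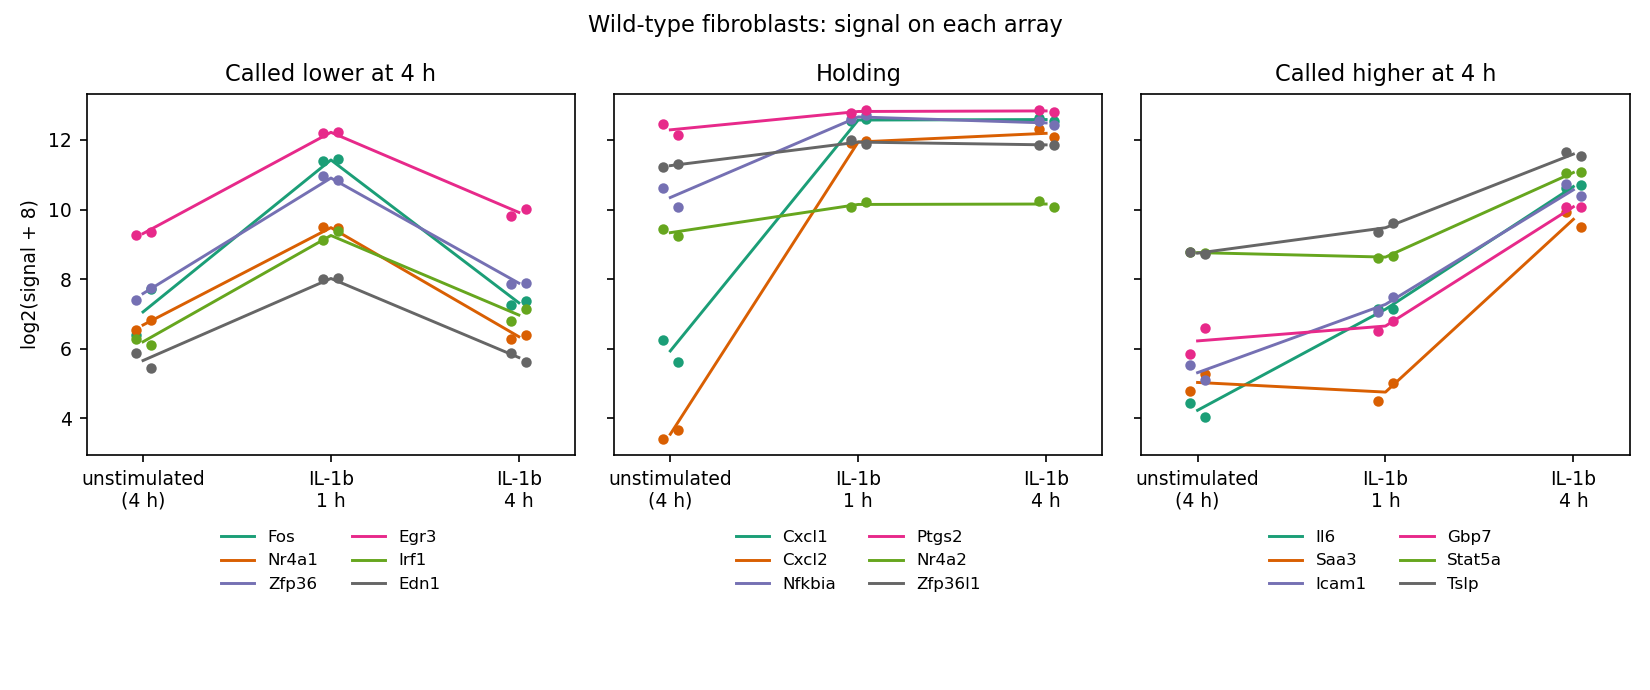
Log2(signal + 8) on each array (points) with the mean of the 2 arrays (lines) in unstimulated, 1 h and 4 h wild-type cells, for 6 genes called lower, 6 holding and 6 called higher at 4 h. The falling genes form a peak at 1 h, Cxcl1 and Cxcl2 a plateau, and Il6, Saa3 and Gbp7 have their highest points at 4 h.

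The inhibitors of NF-kB also differed from each other. Nfkbia (IkB alpha), the inhibitor that NF-kB resynthesises, held at 6206 and 6757 and then 5969.8 and 5531, against 1553 and 1077 unstimulated (-0.17, 95% interval -0.47 to 0.13); of its 4 other measurements on the array, 3 were called lower. Nfkbie (IkB epsilon) rose from 156 and 178 to 866 and 734 (difference 2.21 ± 0.21, adjusted p = 1e-06). Nfkbiz, a nuclear IkB that assists transcription of secondary genes, fell slightly from 4175 and 4284 to 3146 and 3072 and stayed far above its unstimulated 275 and 272 (-0.44 ± 0.092, adjusted p = 0.0024). Tnfaip3 (A20), the ubiquitin-editing brake on the pathway, fell from 1621 and 1867 to 562 and 564 (-1.61 ± 0.14, adjusted p = 6.2e-07), with 42.9 and 43.8 unstimulated, and its partner Tnip1 rose from 99.9 and 129 to 204 and 228 (0.88 ± 0.17, adjusted p = 0.0015).

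Some chemokine transcripts were already at their 4 h level after 1 h and others rose. The neutrophil attractants held, Cxcl1, with 68.5 and 41 unstimulated, 5945 and 6228 at 1 h and 6314 and 5984 at 4 h (difference 0.015, 95% interval -0.51 to 0.54), and Cxcl2, with 2.7 and 4.7, 3885 and 3969 and 5061 and 4308 (0.25, 95% interval -0.093 to 0.59). Cxcl5, of the same class, rose further from 1367 and 1458 to 5191 and 4514 (1.77 ± 0.25, adjusted p = 8.2e-05), and Cxcl3 had 29.3 and 24.4 at 1 h, little above its unstimulated 13 and 15.1, and 469.5 and 567 at 4 h (3.91 ± 0.40, adjusted p = 2.6e-06). Among CC and late chemokines 9 of 16 rose and 1 fell, with a median difference of 0.65. The monocyte attractant Ccl2 rose modestly from 3521 and 4214 to 7026 and 6412 (0.80 ± 0.17, adjusted p = 0.0026), and without the first 1 h array the difference was 0.67 and not called (adjusted p = 0.051). Ccl5 and Ccl11, attractants of T cells and eosinophils, were at 19.6 and 29.2 and at 24.7 and 24.7 at 1 h, overlapping with their unstimulated 21.4 and 5.7 and 24.7 and 15.6, and rose to 459 and 255 and to 170.3 and 165 (3.45 ± 0.37, adjusted p = 4.4e-06 and 2.43 ± 0.30, adjusted p = 2.1e-05). Ccl9 rose from 183 and 262 to 922 and 849.8 (1.98 ± 0.18, adjusted p = 7.9e-07), and Cxcl16 and Cx3cl1, chemokines made as membrane proteins, rose by 2.40 ± 0.25 and 1.96 ± 0.15 (adjusted p = 2.8e-06 and 1.5e-07).

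Among cytokines and growth factors 12 of 27 rose and 3 fell. Il6 read 13.5 and 8.4 unstimulated, 132 and 133 at 1 h and 1566 and 1658 at 4 h (difference 3.53 ± 0.27, adjusted p = 1.5e-07), so all 3 conditions were apart. Tnfsf11 (RANKL), which drives osteoclast formation, rose from 460.2 and 449.9 to 2175 and 2311 (2.28 ± 0.21, adjusted p = 9.4e-07), and the epithelial-type alarm cytokine Tslp from 645 and 771 to 3197 and 2977 (2.12 ± 0.16, adjusted p = 8.6e-08). Pdgfb, a growth factor for mesenchymal cells, was under the signal minimum at 1 h, at 3 and 1.2, and read 146 and 91.9 at 4 h (3.62 ± 0.42, adjusted p = 1.1e-05). Falling members included Edn1 (endothelin), from 248 and 255 to 50.4 and 41.4 (-2.27 ± 0.22, adjusted p = 1.4e-06).

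Among receptors and signal carriers of the IL-6 family 5 of 18 rose and 1 fell. Stat5a rose from 383 and 396 at 1 h, near its unstimulated 432 and 421, to 2104 and 2164 at 4 h (2.43 ± 0.10, adjusted p = 2.4e-10). Lifr, the receptor chain for LIF, fell from 1250.4 and 1298 to 532 and 559 (-1.21 ± 0.12, adjusted p = 2.7e-06). The feedback inhibitors Socs3 and Socs2 lay at 175 and 199.5 and at 202 and 270.5 at 1 h, under the unstimulated 366 and 334 and 483 and 573, and rose by 1.25 ± 0.23 and 1.45 ± 0.18 (adjusted p = 0.00097 and 2.5e-05). The shared receptor chain Il6st (gp130) held (-0.069, 95% interval -0.27 to 0.13).

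Of 13 adhesion genes 6 rose and none fell. Icam1, which holds leukocytes through integrins, read 125 and 172 at 1 h and 1705 and 1337 at 4 h (difference 3.29 ± 0.22, adjusted p = 3.3e-08), and Vcam1 read 895 and 924 and 2501 and 2862 (1.55 ± 0.21, adjusted p = 6.3e-05). In the matrix metalloproteinase list 6 of 16 rose and 2 fell. The stromelysin Mmp10 rose from 79.4 and 63.8 to 663 and 518 (2.91 ± 0.22, adjusted p = 1.3e-07), the gelatinase Mmp9 by 2.28 ± 0.25, the collagenase Mmp13 by 1.48 ± 0.19 and the stromelysin Mmp3 by 1.18 ± 0.17 (adjusted p = 6.8e-06, 2.5e-05 and 0.00011). Their inhibitor Timp1 rose from 1805 and 2009 to 3380.3 and 3041 (0.75 ± 0.10, adjusted p = 6e-05). Adamts enzymes, which cut proteoglycans, went both ways: Adamts1 fell from 749 and 680.5 to 147 and 143 (-2.24 ± 0.15, adjusted p = 2.9e-08) and Adamts5 and Adamts9 had differences of -1.01 ± 0.086 and -0.97 ± 0.14 (adjusted p = 4.3e-07 and 0.0001), while Adamts4 rose from 955 and 1038 to 2444 and 2426 (1.28 ± 0.13, adjusted p = 2.9e-06). Collagens and other structural matrix genes mostly held, 25 of 28, among them Col1a2 (0.049, 95% interval -0.11 to 0.21), with 2 rises and no fall.

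Large rises stood among acute phase and effector genes. Of 22 tested, 14 rose, none fell, and the median difference was 1.32. Lcn2, Acod1 (which makes itaconate) and Hamp (the iron hormone hepcidin) had reached the signal minimum on the 4 h arrays alone, and without them 11 of 19 rose, with a median of 1.10. Acod1 and Hamp are named here after their values were seen, and each lost its call without any 1 of the 4 arrays compared (adjusted p up to 0.13 and 0.20). Saa3, a serum amyloid protein, read 19.4 and 31 unstimulated, 14.6 and 24.2 at 1 h and 972 and 718 at 4 h (4.97 ± 0.39, adjusted p = 1.5e-07). Steap4, a metalloreductase of the cell surface, read 6.4 and 27.5 at 1 h and 634 and 615 at 4 h (4.81 ± 0.35, adjusted p = 7.1e-08). Lcn2, which binds bacterial siderophores, went from 9.8 and 1.4 to 190.2 and 168 (3.85 ± 0.50, adjusted p = 3.1e-05), and Gch1, which makes the nitric oxide synthase cofactor tetrahydrobiopterin, from 22.3 and 22.9 to 317 and 267 (3.29 ± 0.35, adjusted p = 3.7e-06). The 1 h values of all 4 overlapped with their unstimulated ones, those of Steap4, Lcn2 and Gch1 being 22.1 and 13.7, 6.2 and 9.8 and 18.3 and 29.1. Most of these 1 h signals lay under the signal minimum of 25.5, so that the sizes and order of the rises depend on the constant added before the log. With 2 added in place of 8, the difference of Saa3 was 5.33 and that of Icosl, which is outside this list, was 5.54.

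All 4 tested guanylate-binding proteins, GTPases best known as interferon targets, rose, with a median of 3.39. Gbp6 reached the signal minimum on the 4 h arrays alone, and the median of the other 3 was 3.36. Gbp7 read 49.6 and 89.1 unstimulated, 82.4 and 104 at 1 h and 1077 and 1070.3 at 4 h (difference 3.43 ± 0.20, adjusted p = 7.4e-09). Gbp3 read 55.1 and 70 at 1 h and 737 and 687 at 4 h (3.36 ± 0.24, adjusted p = 6.1e-08), and Gbp6 and Gbp2 rose by 3.92 ± 0.42 and 2.70 ± 0.23 (adjusted p = 4.3e-06 and 3.9e-07). Gbp2b, which is outside the list, rose from 81.9 and 115 to 714 and 667 (2.73 ± 0.20, adjusted p = 7.4e-08). These proteins are similar in sequence, so a measurement of one may take up RNA of another. The wider set of interferon factors and targets had 6 rises and 1 fall among 27 genes. The fall was that of Irf1, a transcription factor, from 556 and 654 to 103 and 134, with 70.2 and 61.1 unstimulated (-2.29 ± 0.22, adjusted p = 1.5e-06), and Trim21, a ubiquitin ligase and antibody receptor, rose from 151 and 136 to 412 and 419.9 (1.49 ± 0.17, adjusted p = 9e-06).

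Of 13 prostaglandin genes 3 rose and 2 fell. Hpgd, the enzyme that inactivates prostaglandins, read 91.9 and 104 unstimulated, 252 and 317 at 1 h and 25.1 and 22 at 4 h (difference -3.21 ± 0.22, adjusted p = 4.2e-08). Both 4 h arrays of Hpgd were under the signal minimum, and under other settings its difference ran from -3.48 to -2.50. Ptges, the terminal synthase of prostaglandin E2, rose from 107 and 128 to 446 and 420.5 (1.82 ± 0.17, adjusted p = 8.9e-07). Ptgs2 (cyclooxygenase-2) held at 7055 and 7388 and then 7446 and 7159.8, against 5573 and 4495 unstimulated (0.016, 95% interval -0.23 to 0.26). Of the receptors, Ptger4 fell with a difference of -0.85 ± 0.11, while Ptger2, which reached the signal minimum on the 4 h arrays alone, and Ptgir rose by 2.94 ± 0.59 and 1.64 ± 0.31 (adjusted p = 4.8e-05, 0.0018 and 0.0011).

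In the redox and metal list 9 of 23 rose and 2 fell. The metal-binding Mt2 rose from 670.1 and 627 to 2626 and 2595 (1.996 ± 0.12, adjusted p = 7.4e-09) and Mt1 by 1.10 ± 0.12 (adjusted p = 5.9e-06), and the mitochondrial superoxide dismutase Sod2 rose from 466 and 415 to 1066 and 1218 (1.36 ± 0.12, adjusted p = 8.5e-07). Gsr, which regenerates glutathione, fell from 1926 and 1866 to 1125 and 1324 (-0.63 ± 0.091, adjusted p = 9.4e-05). Among the survival and death receptor genes 8 rose and 4 fell of 22. The death receptor Fas rose from 599.9 and 779.8 to 2189.5 and 2021 (1.61 ± 0.12, adjusted p = 6.7e-08), the inflammatory caspase Casp4 from 66.1 and 76.7 to 427 and 437 (2.47 ± 0.24, adjusted p = 1.4e-06) and Cflar, which blocks caspase-8, by 1.00 ± 0.14 (adjusted p = 5.3e-05). Gadd45g and the kinase Pim1 fell with differences of -1.51 ± 0.14 and -1.07 ± 0.14 (adjusted p = 7.2e-07 and 2.5e-05). In the ATF4 and unfolded protein response list 10 of 28 rose and 2 fell, Ppp1r15a, which restarts translation (-0.91 ± 0.19, adjusted p = 0.0031), and Atf5, a transcription factor (-0.48 ± 0.13, adjusted p = 0.016), while the chaperone Hspa5 held (-0.052, 95% interval -0.26 to 0.15). The call of Atf5 was lost without either 1 h array or without the second 4 h array (adjusted p up to 0.26).

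In cholesterol and fatty acid synthesis 11 of 28 genes fell and 1 rose, with a median difference of -0.29. Stard4, a sterol carrier, fell from 713 and 697 to 345 and 317 (-1.07 ± 0.12, adjusted p = 8.6e-06) and Dhcr7, the last enzyme of cholesterol synthesis, from 2068 and 2005 to 1123 and 1011 (-0.93 ± 0.10, adjusted p = 7.7e-06). The sterol exporter Abcg1 was the one that rose, by 1.17 ± 0.24 (adjusted p = 0.0023). Of the glycolysis and hypoxia genes, 7 rose and 5 fell of 29. Pfkfb3, which makes the activator of phosphofructokinase, rose from 75.9 and 106 to 362 and 505 (2.15 ± 0.22, adjusted p = 2.7e-06) and the hexokinase Hk2 from 541 and 646 to 1412 and 1307 (1.19 ± 0.14, adjusted p = 1.4e-05). Ribosome biogenesis genes had 10 rises and no fall among 23, Nip7 by 0.91 ± 0.11, adjusted p = 1.6e-05, whereas all 22 tested cytosolic ribosomal proteins held.

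**Figure D3:**
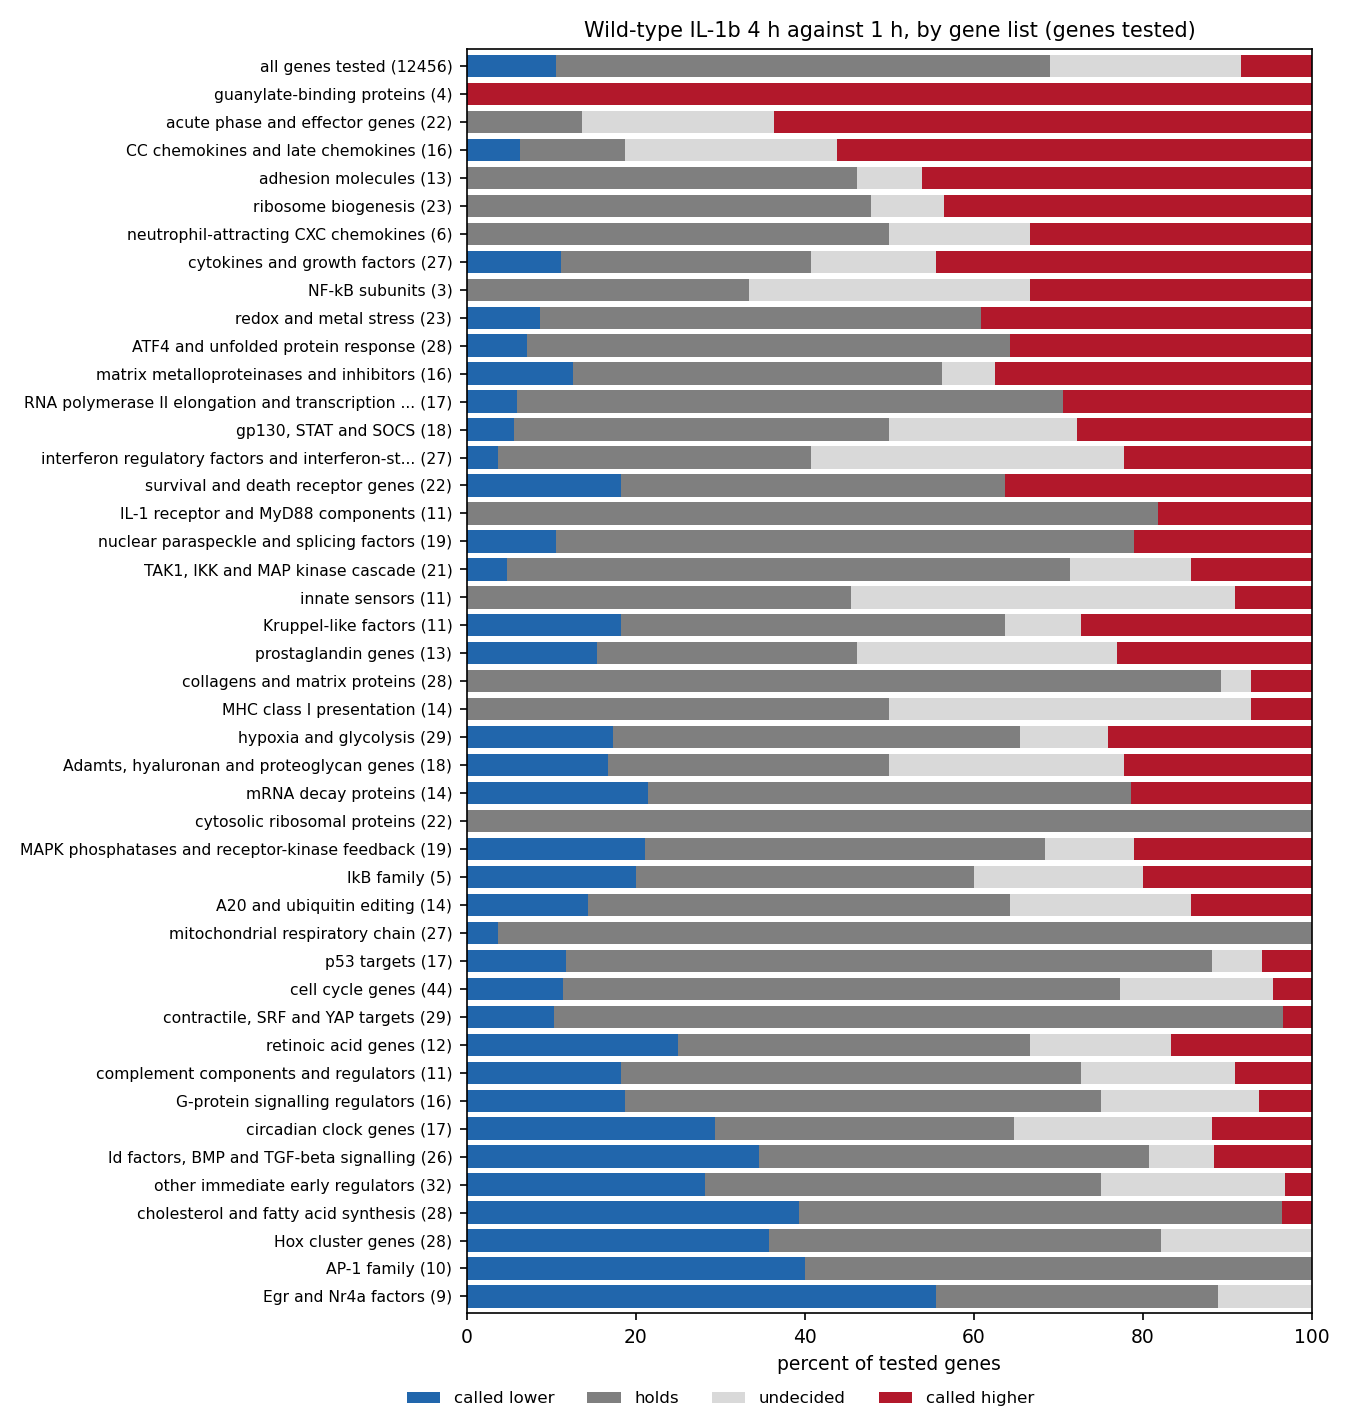
Share of tested genes (horizontal axis, percent) called lower, holding, undecided and called higher at 4 h for each gene list (rows, number of tested genes in brackets), with all tested genes in the top row. Guanylate-binding proteins and acute phase genes have the largest share called higher (100% and 57.9% also without the members that reached the signal minimum at 4 h alone), and Egr, Nr4a and AP-1 factors the largest share called lower.

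Among Id factors and BMP and TGF-beta genes 9 of 26 fell and 3 rose. Id4, an inhibitor of basic helix-loop-helix factors, read 540.1 and 665 unstimulated, 580.2 and 626 at 1 h and 91.8 and 128 at 4 h (difference -2.39 ± 0.14, adjusted p = 6.9e-09), and the ligand Bmp4 read 313 and 344 and then 71.2 and 71.8 (-2.08 ± 0.12, adjusted p = 6.5e-09). Id2 also fell (-1.17 ± 0.13, adjusted p = 6.8e-06). Of 28 Hox genes, which mark body position, 10 fell and none rose, among them Hoxa10 from 1053 and 926 to 423 and 421 (-1.21 ± 0.14, adjusted p = 1.1e-05), and Hoxa3 and Hoxa5 with differences of -1.05 ± 0.13 and -1.04 ± 0.18 (adjusted p = 2.2e-05 and 0.00052). The regulator of G-protein signalling Rgs4 fell from 569 and 689 to 232 and 242 (-1.37 ± 0.10, adjusted p = 9.2e-08). Irs1, the insulin receptor substrate, fell from 1211 and 1189 to 392 and 284 (-1.82 ± 0.13, adjusted p = 4.2e-08), and the nuclear factor Tox from 578 and 566 to 112 and 149 (-2.08 ± 0.15, adjusted p = 6e-08). Rgs4 read 670.5 and 686 unstimulated, so that its 1 h arrays, like those of Id4, lay close to the unstimulated ones and the low values were those of 4 h.

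Some of the rising transcripts had lower values at 1 h of IL-1b than in cells left 4 h without it, a grouping made after their values were seen. These conditions differ in both cytokine and time, and the parts of the 2 cannot be told apart. The receptor tyrosine kinase Ret read 341 and 396 unstimulated, 60.9 and 68.4 at 1 h and 447 and 438 at 4 h (difference 2.63 ± 0.14, adjusted p = 3.7e-09). Aldh1a3, which makes retinoic acid, read 72.3 and 84.2, 11.5 and 11 and 108 and 136 (2.75 ± 0.22, adjusted p = 1.8e-07), and Cyp26b1, which degrades it, read 61.3 and 58.6, 19.3 and 18.6 and 51.8 and 69.3 (1.34 ± 0.23, adjusted p = 0.00053). The 1 h signals of these 2 were under the signal minimum. Under other settings their differences ran from 1.83 to 3.22 and from 0.855 to 1.56. Il11, a cytokine of the IL-6 family, read 754 and 501, 207 and 234 and 784 and 981 (1.96 ± 0.19, adjusted p = 1.7e-06), and Txnip, an inhibitor of thioredoxin, 2443 and 2616, 1067 and 988 and 2298 and 2252 (1.14 ± 0.093, adjusted p = 2.4e-07). The 4 h arrays of Cyp26b1 overlapped with the unstimulated ones, those of Txnip lay just below them and those of Ret, Aldh1a3 and Il11 above. The repressor Bcl6b read 76.7 and 68.1 unstimulated, 17.5 and 28.5 at 1 h and 245 and 266 at 4 h (3.11 ± 0.20, adjusted p = 2.2e-08), so its 4 h arrays lay above both other groups. Other large rises outside the lists were Icosl, the ligand of the T cell co-stimulator ICOS, from 9.7 and 1.6 to 295 and 306 (4.57 ± 0.42, adjusted p = 7.9e-07), and Slc7a2, a carrier of arginine, from 123 and 143 to 997 and 877 (2.75 ± 0.15, adjusted p = 6e-09).

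Among clock genes 5 of 17 fell and 2 rose. The output factor Dbp read 107 and 81.1 at 1 h and 33.4 and 37.7 at 4 h (-1.22 ± 0.20, adjusted p = 0.00036), Per3 had a difference of -0.69 ± 0.15 and Arntl (BMAL1), an activator of the Per genes, rose from 106 and 80.2 to 215 and 232 (1.21 ± 0.20, adjusted p = 0.0004, and adjusted p = 0.0034 for Per3).

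The change between the times was then set against the same change in kinase-dead cells, which share no array with the wild-type comparison. The spread of each gene was estimated from all 12 arrays together, however, so the calls in the genotypes are not independent. A gene with low spread is more readily called in both. The part of this in the shared calls below was not tested. In kinase-dead cells 503 genes were called (4.04% of those tested), 279 higher and 224 lower at 4 h. Of these, 168 of the rises were also among the wild-type rises (60.2% of the kinase-dead and 16.0% of the wild-type ones) and 141 of the falls among the wild-type falls (62.9% and 10.7%), while 13 genes were called in opposite directions, 6 of them higher in wild type. The difference of the 2 changes, wild type minus kinase dead, was tested for each gene and called in 446 (3.58%). The label of the kinase-dead cells names a lost enzyme activity, and the transcript of Irak4 itself was not analysed here. The cultures of the genotypes also differed in markers. The 17 macrophage markers summed to 591 to 713 on the stimulated wild-type arrays and to 1108 to 1400.1 on the stimulated kinase-dead arrays, and the 15 fibroblast markers to 33779 to 36218 and to 30117 to 32352. Over all 6 arrays of a genotype, the macrophage genes C1qb and Lyz2 read 11.1 to 30.3 and 96.7 to 128 in wild type against 92.4 to 142 and 231 to 319 in kinase-dead cells. The fibroblast genes Pdgfra and Lum read 581 to 811 and 277 to 609.7 in wild type against 118 to 183 and 56.9 to 81.9. These 4 were chosen after their values were seen. Several further macrophage markers also had no overlap between the genotypes, all of them higher in kinase-dead cells and some at low signals. A further fibroblast marker had no overlap either, at 2630 to 3150 in wild type and 1083 to 1609 in kinase-dead cells. The remaining members of both lists overlapped. Col1a2 read 5309 to 6260 in wild type and 5686 to 6229 in kinase-dead cells. The macrophage marker with the highest mean signal read 234 to 337 and 244 to 340. The part of the marker differences in the genotype comparison was not tested.

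Cxcl1, Cxcl2 and Ccl2, which held or rose modestly in wild-type cells, rose more in kinase-dead cells between the times. Cxcl1 read 73.8 and 36.7 at 1 h and 855 and 720.3 at 4 h there (change 3.71 ± 0.25, adjusted p = 8.6e-08, difference between genotypes -3.70 ± 0.35, adjusted p = 9.9e-06), and Cxcl2 read 14.4 and 11.9 and 143 and 129 (change 2.77 ± 0.16, adjusted p = 2.1e-08, difference -2.52 ± 0.23, adjusted p = 7.4e-06). Ccl2 read 107 and 116 and then 1498 and 1499.9 (change 3.65 ± 0.17, adjusted p = 1.8e-09, difference -2.85 ± 0.24, adjusted p = 3.4e-06). In each of the 3, the kinase-dead 4 h arrays were below the wild-type 1 h arrays. Nfkbiz rose in kinase-dead cells from 453 and 412 to 1614 and 1485 (change 1.82 ± 0.092, adjusted p = 4.1e-09), against the slight wild-type fall (difference -2.27 ± 0.13, adjusted p = 6.3e-08). Tnfaip3 and Irf1, which fell in wild type, had kinase-dead changes of 0.44 ± 0.14, adjusted p = 0.095, and 0.81 ± 0.22, adjusted p = 0.051 (differences -2.06 ± 0.20, adjusted p = 1.4e-05, and -3.10 ± 0.31, adjusted p = 1.6e-05).

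Rises that were larger in wild-type cells included those of Il6, Saa3, Gbp7, Stat5a and Tslp. In kinase-dead cells Il6 read 18.5 and 20.5 at 1 h and 19.5 and 25.3 at 4 h (change 0.14 ± 0.27, adjusted p = 0.85, difference between genotypes 3.39 ± 0.39, adjusted p = 5.3e-05). Saa3 read 30.2 and 9.4 and then 41.3 and 47.3 in kinase-dead cells (difference between genotypes 3.95 ± 0.55, adjusted p = 0.00041). Gbp7 read 93.5 and 91.7 and then 127 and 129 in kinase-dead cells (difference between genotypes 2.99 ± 0.29, adjusted p = 1.1e-05). Stat5a, at a change of 0.27 ± 0.10 in kinase-dead cells, differed by 2.17 ± 0.14, adjusted p = 2.7e-07, and Tslp, at -0.23 ± 0.16, by 2.35 ± 0.22, adjusted p = 9.9e-06. All 4 tested guanylate-binding proteins (3 of 3 without Gbp6), 8 of 22 acute phase genes (7 of 19 without Lcn2, Acod1 and Hamp) and 5 of 16 matrix metalloproteinase genes were called with the larger rise in wild type. Over all 12456 tested genes, 213 had a called positive difference between genotypes. Among the falls, Zfp36 went from 279.7 and 311 to 160.4 and 173 in kinase-dead cells (change -0.80 ± 0.16, adjusted p = 0.0082), a smaller fall than in wild type (difference -2.23 ± 0.22, adjusted p = 1.4e-05). Hpgd and Id4 had kinase-dead changes of -0.10 ± 0.22, adjusted p = 0.86, and -0.33 ± 0.14, adjusted p = 0.2 (differences -3.10 ± 0.31, adjusted p = 1.5e-05, and -2.06 ± 0.19, adjusted p = 9.9e-06).

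Several early falls were called in both genotypes and were not called different. Egr3 fell in kinase-dead cells from 2092 and 2564 to 465 and 621 (change -2.09 ± 0.13, adjusted p = 6.6e-08), with a difference between genotypes of -0.21, 95% interval -0.61 to 0.19. For Dusp1 the kinase-dead change was -1.32 ± 0.14, adjusted p = 2.4e-05 and the difference -0.23, 95% interval -0.63 to 0.18, and for Jun they were -0.96 ± 0.09, adjusted p = 8.4e-06, and -0.11, 95% interval -0.38 to 0.15. With each of its probe sets tested singly, Jun had a probe set with a difference of -1.34 that was called (adjusted p = 0.00028). Fos fell in kinase-dead cells with a change of -2.70 ± 0.28, adjusted p = 3e-05, from 1611 and 1697 to 192 and 320.2, with a difference of -1.41, 95% interval -2.26 to -0.56 (adjusted p = 0.068), which was not called. It was called without either unstimulated wild-type array (adjusted p = 0.0013 and 0.0014), without the first kinase-dead 4 h array (-1.77, adjusted p = 0.04), with the replicate number as a block (adjusted p = 0.034), with 32 added before the log (0.037), with median centring (0.036) and with array weights (0.018). Over all its alternatives the adjusted p ran from 0.0013 to 0.28. Nfkbie and Zc3h12a rose in both, with kinase-dead changes of 1.79 ± 0.21, adjusted p = 7.9e-05, and 3.04 ± 0.38, adjusted p = 0.0002 (differences 0.42, 95% interval -0.20 to 1.03, and -0.85, 95% interval -1.99 to 0.29).

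**Figure D4:**
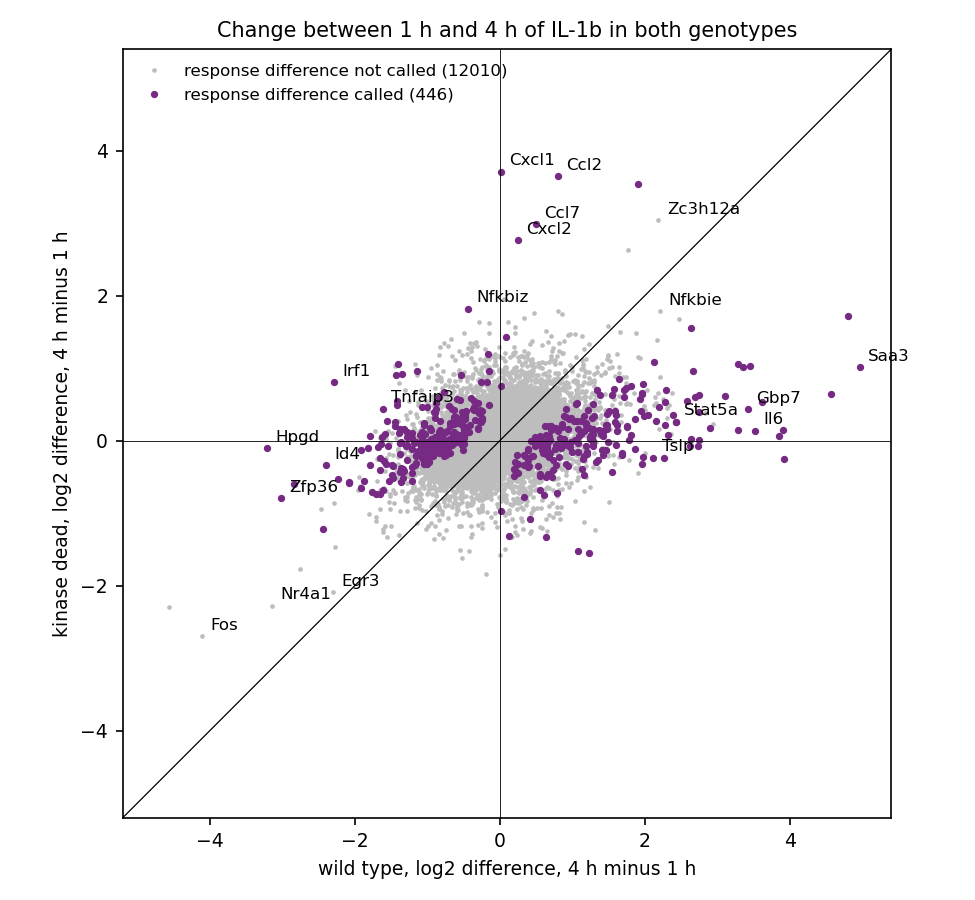
Log2 difference between 4 h and 1 h in kinase-dead cells (vertical axis) against that in wild-type cells (horizontal axis), 1 point a gene, with the line of equal change. Purple marks the 446 genes whose change was called different, among them Cxcl1, Cxcl2 and Ccl2 above the line and Il6, Saa3 and Gbp7 below it.

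Promoter content was described over the 10024 tested genes with a RefSeq window, using the 250 bases before the first-listed start. The NF-kB motif stood in 8.59% of all of them, in 16.2% of the 229 promoters of genes that rose by at least 2-fold and in 10.8% of the 212 of genes that fell by as much. For the ISRE the shares were 2.56%, 5.24% and 0.472% (1 promoter), for the C/EBP motif 7.29%, 13.1% and 6.13%, for the STAT motif 5.76%, 10.0% and 5.19%, and for the AP-1 motif TGANTCA 4.27%, 10.9% and 2.83%. The cyclic AMP response element core went the other way, with 26.8% of all, 17.5% of the rising and 27.8% of the falling. Without the 2-fold limit, the shares for all rises lay closer to those of all tested genes. They were 11.6% (NF-kB), 3.74% (ISRE), 7.84% (C/EBP), 6.76% (STAT), 5.67% (AP-1) and 25.2% (cyclic AMP core). For all falls the ISRE share was 2.47% and the NF-kB share 7.78%. The CArG box was rare throughout, at 1.23%, 1.31% and 1.89%. The windows differed in base composition, with a median ratio of observed to expected CpG of 0.722 over all, 0.608 for the rising and 0.708 for the falling genes, and the part of that difference in the motif shares was not tested. A match is a run of letters and no evidence of binding, and 2041 of the genes have further windows that were not searched.

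**Figure D5:**
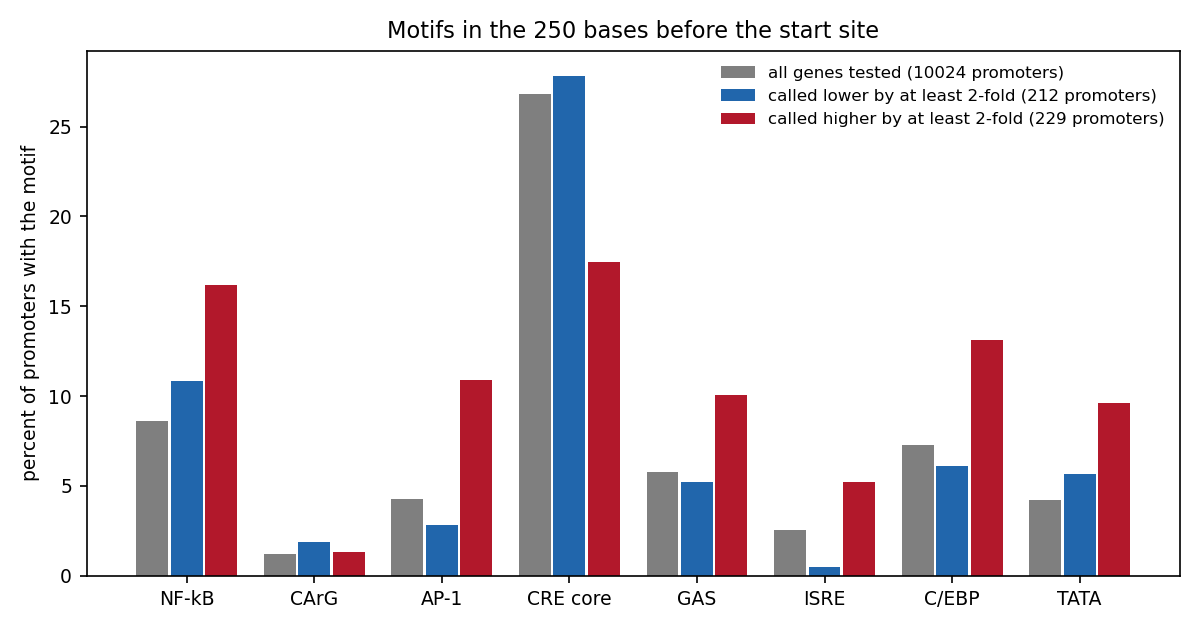
Percent of promoters (vertical axis) that hold each motif in the 250 bases before the start, for all tested genes and for those called lower or higher by at least 2-fold. The NF-kB, AP-1, GAS, ISRE, C/EBP and TATA bars are highest for genes called higher, and the cyclic AMP response element core is lowest there.

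Markers placed the cultures as fibroblasts at both times. The summed signal of 15 fibroblast markers was 35606 to 36218 at 1 h and 33779 to 35856 at 4 h. The sums of 17 macrophage markers were 679 to 713 and 591 to 641, those of 12 neural markers 802.5 to 807 and 652 to 662, those of 12 endothelial markers 122 to 186 and 89.9 to 99.5, and those of 8 adipocyte markers 798 to 802 and 604 to 688. Each of these 4 sums was lower at 4 h on both arrays, and their part in the falls was not tested. Members of the neural list went both ways: Slc1a3, a glutamate carrier (-1.59 ± 0.19, adjusted p = 1.4e-05), and Map2, a microtubule protein (-0.96 ± 0.24, adjusted p = 0.0086), fell, and Nes, an intermediate filament protein (0.75 ± 0.18, adjusted p = 0.0086), and Sox2, a stem cell factor (0.93 ± 0.21, adjusted p = 0.0043), rose. Calls were lost without the second 1 h array (Map2 and Sox2), the first 4 h array (Map2), the first 1 h array (Nes) or the second 4 h array (Nes). That of Map2 was also lost in limma without a variance trend on mean signal. Sox2 further lost its call in limma with only the 4 arrays compared and with only the 6 wild-type arrays (adjusted p up to 0.074). The sums of epithelial (196 to 206, then 130 to 252), skeletal muscle (135 to 169.6, then 194 to 195) and mast and lymphoid markers (40.8 to 60.7, then 48.4 to 63) were low. In such mixed RNA, fewer cells of a type and less RNA per cell cannot be told apart. Actin 3' to 5' signal ratios, a sign of RNA integrity, were 2.44 and 2.43 at 1 h and 2.58 and 2.15 at 4 h. The same ratios for Gapdh were 1.45 and 1.48 at 1 h and 1.37 and 1.29 at 4 h, lower on both 4 h arrays, and their part in the differences between the times was not tested. The 2 arrays of a time correlated at 0.984 at 1 h and 0.980 at 4 h over the genes compared. The number of arrays limits the precision.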

How the data were processed

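RNA from 12 samples of mouse embryonic fibroblasts was extracted on RNeasy columns, labelled by the NuGEN Ovation protocol and hybridised to 1-colour Affymetrix arrays, per the labels' protocols. The deposited table holds the authors' MAS5 signal intensity of 45101 probe sets, with MAS5 named in the submitters' processing notes. Each array's mean with 2% trimmed from each end was 150, so arrays had been scaled to that value and no further normalization was added. Array medians lay between 23 and 28.3.

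Probe sets were named from GEO's platform annotation, with symbols updated through RefSeq for 34741 of them. A single symbol was listed for 34945 probe sets, several for 932 and none for 9160, and 64 were controls. For each gene the probe set with the highest mean signal was used. Among the 1398 called genes with another tested probe set, 526 had one called in the same direction and 33 one called in the opposite direction. In 847 of them no other probe set was called.

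Means of the 6 groups were fitted to log2(signal + 8) of all 12 arrays with limma 3.58.1 in R 4.3.3, with a variance trend on mean signal, 6 residual degrees of freedom and Benjamini-Hochberg adjustment. The script was tested on simulated data. Promoter windows came from RefSeq (GRCm38.p6). Python 3.11.15 with matplotlib 3.10.9 made the figures.

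The members and gene lists were chosen with earlier results of these data known. Genes were named by rule: the 25 largest rises and the 25 largest falls among called genes, the 12 largest genotype differences in each direction, and in each list up to 5 called members in each direction and up to 3 holding members with the highest mean, or every tested member of lists of at most 15.

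Some genes the rule takes were left unnamed after their values under other settings had been seen, and the stability of calls is therefore given over all called genes as well. The alternatives were other added constants, filters, normalizations, variance models and array sets, every probe set singly, array weights, a replicate block, and each array left out.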

Additional observations from a re-analysis of the deposited data

Results flagged for a closer look

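The change between 1 h and 4 h differed between genotypes by the test of the difference itself (limma, wild-type change minus kinase-dead change) in 446 genes, 71 of them among the 130 tested genes that the report names. The values below are those of the largest differences and of the genes whose difference the report gives, not of all 71. The difference was positive for Gbp6 (4.17), Saa3 (3.95), Icosl (3.93), Lcn2 (3.79), Cxcl3 (3.77), Il6 (3.39), Gch1 (3.13), Pdgfb (3.09), Steap4 (3.09), Gbp7 (2.99), Gbp2b (2.80), Tslp (2.35) and Stat5a (2.17). It was negative for Cxcl1 (-3.70), Hpgd (-3.10), Irf1 (-3.10), Ccl2 (-2.85), Cxcl2 (-2.52), Nfkbiz (-2.27), Zfp36 (-2.23), Tnfaip3 (-2.06) and Id4 (-2.06). Gbp6 and Lcn2 reached the signal minimum on the wild-type 4 h arrays alone, and the call of Lcn2 was lost with 2 added before the log (adjusted p = 0.0502), that of Pdgfb without the first wild-type 4 h array (adjusted p = 0.055). A negative value stands for a larger fall in wild type (Hpgd, Zfp36, Id4), a larger rise in kinase-dead cells (Cxcl1, Cxcl2, Ccl2) or a wild-type fall beside a kinase-dead difference above 0 (Irf1, Nfkbiz, Tnfaip3).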

How the results depend on the processing

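Of the 2364 genes called between 1 h and 4 h in wild-type cells, 972 (41.1%) stayed called in the same direction under all 24 alternatives that gave them a value, 1376 under all changes of processing and 985 with each of the 12 arrays left out in turn. Among the 245 called genes that the naming rule takes, 158 (64.5%) stayed called throughout. Of the 114 called genes named in the report, 105 did (92.1%), but that share describes a chosen set: Dusp6, Dusp10, Relb, Ccl7, Csf2, Kitl, Osmr, Irf7, Ifit1, Slc7a11 and Nop16, which the rule also takes, were left out of the report after their calls were seen to be lost under some alternative. That list is not complete, since other called genes that the rule takes and that lost their call under some alternative are unnamed as well. The named genes are therefore more stable than the called genes as a whole.

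Leaving out 1 array gave 1382 to 2767 called genes, 690 to 1203 of them higher and 692 to 1564 lower, with 6832 to 7394 holding. The called genes numbered 1467 without the first and 1382 without the second wild-type 1 h array, and the falls 757, 692 and, without the second wild-type 4 h array, 855. The same alternatives gave 277 to 634 genes called different between genotypes and 118 to 885 called in kinase-dead cells. Without the variance trend these were 180 and 81, and array weights gave 1007 in kinase-dead cells.

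Same-numbered samples did not deviate together over the genes (15 pairs, correlations -0.050 to 0.099). The labels do not say whether the numbers pair the samples, and these correlations cannot settle it, since a weak pairing could be missed. With the replicate block 2342 genes were called, 1031 higher and 1311 lower. Low signals limit what could be seen, since 5737 genes stayed under the signal minimum and were not tested.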
